A study of Rattus norvegicus with 12 samples.

Results

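The potassium channel genes were taken by name from a table of hippocampal RNA counts, as the rows whose symbol begins with Kcn. Kcnj8, Kcnj10 and Kcnj13 were left out by the rule, and a gene had to reach 10 counts in at least 6 of 12 libraries. Of 91 Kcn rows among the 17494 genes listed, 88 were candidates and 75 met the rule. The 13 that did not were Kcnn4, Kcna7, Kcne3, Kcnq1, Kcnv2, Kcnk18, Kcnmb1, Kcne1, Kcnmb3, Kcna10, Kcnk15, Kcnj1 and Kcne4. The 12 libraries each came from 1 male Long Evans rat. The rats were exposed to 3 blasts from 10 weeks of age and sacrificed 29 weeks later. Of these rats, 6 ate chow with boldine at 500 mg/kg from week 2 after blast (blast-boldine) and 6 ate the same chow without it (blast-controls). All 12 rats were blast-exposed, so the comparison is of boldine with no boldine after blast, and rats not exposed to blast are not analysed here. The labels give the tissue as brain, and the study's methods give it as hippocampus.

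Potassium channels let potassium ions leave or enter cells and set the resting potential, the length of action potentials and the rate of firing. Voltage-gated Kv channels open on depolarization, calcium- and sodium-activated channels follow activity, inward rectifiers (Kir) and two-pore-domain channels (K2P) act near rest, and auxiliary subunits change the gating or trafficking of the pore-forming ones. In the hippocampus these families shape dendritic excitability, after-hyperpolarization, the response to GABA and neuromodulators, and the clearance of potassium by glia.

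The libraries were not of equal use for these genes. In 11 libraries the total was 10148474 to 40850106 counts, and in that of blast-control rat 6 it was 74008. In rat 6 the 75 genes shared 229 counts, against 49129 to 210661 in the other libraries, and 41 of them had no count, 12 had 1 or 2 and 22 had 3 or more. Levels are given in CPM (counts divided by the effective library size), and 1 count was 15.8 CPM in rat 6 and at most 0.102 CPM elsewhere. A gene with 0 counts in rat 6 could therefore have lain anywhere up to 47.5 CPM there, the worth of 3 counts, and this limit covers counting error only. The rats were divided into 2 sheets of 6 libraries, with each library suffix once per sheet. It was assumed that rat numbers rise with the suffix within a sheet, which no label states, and 4 ways to divide them then remain. The division into rats 1, 7, 9, 20, 32 and 35 (sheet 1) and rats 4, 5, 6, 12, 17 and 19 (sheet 2), which accounted for 95.74% of the first principal component of 11 libraries (treatment, 1.49%), was used as the sheet. It was chosen on these data and stands in no label. Treatments were compared over all 12 libraries, without rat 6, and without rat 6 but with the sheet as a term (called the fit with the sheet). As a check of the tissue, the 6 dentate granule markers measured summed to between 352 and 531 CPM and the 10 CA pyramidal markers to between 910 and 1429 CPM in the 11 libraries other than rat 6.

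The genes were first ordered by level, as mean CPM per kilobase of exon over the 11 libraries other than rat 6. Kcnab2, a Kv beta subunit that binds Kv1 channels, was the highest at 228. Kcnip2 (73.8) is a calcium-binding KChIP subunit of Kv4 channels. Kcna1 (68.5), a Kv1 subunit of axons and terminals, and Kcnd2 (68.0), the Kv4 pore-forming subunit of the dendritic A-type current, stood next to each other in this order and differed by far less than the spread between libraries. Kcnab1 (60.6), Kcnj3 (51.4) and Kcnq3 (50.6) came next. Kcnj3 encodes a subunit of the Kir channels opened by G proteins, and Kcnq3 one of the Kv7 channels behind the M-current.

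**Figure D1:**
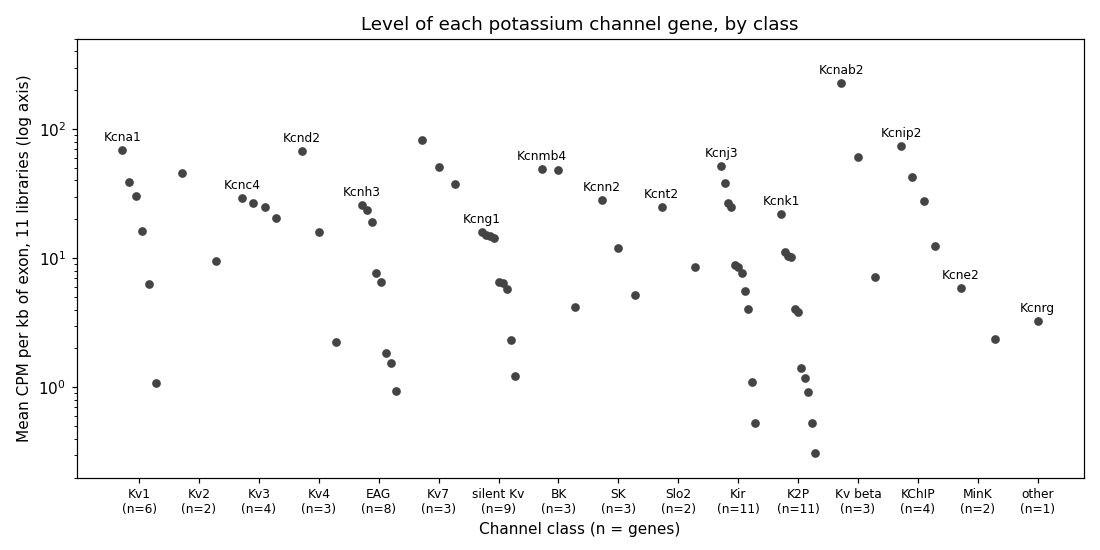
Mean level of each of the 75 genes in CPM per kilobase of exon (log axis) over 11 libraries, by channel class, with the highest gene named in most classes. Kcnab2 sits above every other gene at 228, and Kcnk5, a K2P gene, is the lowest at 0.307.

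In other classes the highest genes were Kcnmb4 (49.0 CPM per kilobase), a beta subunit of BK channels, and Kcnc4 (29.4) of the fast Kv3 class. Kcnn2 (28.2) was the highest SK gene, Kcnh3 (25.7) the highest of the EAG class, Kcnt2 (24.8) the higher of the sodium-activated Slo2 genes, and Kcnk1 (21.9) the highest K2P gene. Kcng1 (15.9) led the silent Kv genes, whose products form channels only together with Kv2 subunits, and Kcne2 (5.88) was the higher of the MinK genes. At the low end, Kcnk5 (0.307), Kcnj15 (0.525) and Kcnk16 (0.530) were close to the limit of the rule. Kcnma1, the pore-forming BK subunit, had 48.2 CPM per kilobase, and Kcnk2, a mechanically gated K2P channel, 10.49. Kcnj6, another subunit of G-protein-gated Kir channels, had the highest mean of the 75 in blast-boldine rats before division by length, 447.5 CPM, yet 26.5 CPM per kilobase, since its listed exons hold 16340 bases.

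RefSeq's promoter sequences (build GRCr8, a later build than the mRatBN7.2 of the counts) matched 50 of the 75 genes by symbol, and the 250 bases before the start of each were searched on both strands. Their GC content had a median of 64.4%, against 52.0% over all 27457 promoters. The GC box GGGCGG was found in 25 of the 50, against 32.4% of all promoters. The TATA box TATAAA was found in none, against 13.1%, the short cAMP-response motif TGACG in 8, against 5205 of all 27457, the full motif TGACGTCA in none, against 1.70%, and the EGR motif GCGTGGGCG in none, against 0.514%. Every TGACGTCA also holds TGACG. The 60 bases upstream of the start are shown for 4 genes of which the values between treatments are described after them, 2 higher and 2 lower, with GC boxes on either strand in capitals.
Kcnj16, GRCr8 chr10:96517264-96517323, + strand: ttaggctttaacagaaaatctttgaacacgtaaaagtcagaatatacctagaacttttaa
Kcnj14, GRCr8 chr1:105437259-105437318, - strand: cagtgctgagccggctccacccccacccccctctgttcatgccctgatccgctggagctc
Kcnt1, GRCr8 chr3:29081279-29081338, + strand: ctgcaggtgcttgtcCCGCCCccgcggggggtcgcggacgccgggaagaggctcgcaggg
Kcnk4, GRCr8 chr1:213555862-213555921, - strand: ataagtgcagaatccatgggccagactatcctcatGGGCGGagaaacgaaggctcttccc

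Kcnj16 had the lowest GC content of the 50 promoters, 33.6%, and no GC box in 250 bases, and Kcnj14 (59.6%) had none either. Kcnt1 had 3 GC boxes in the 250 bases, 1 of them in the stretch shown, and Kcnk4 had 1. Among other genes lower in the fit with the sheet, Kcnf1 and Kcnj4 had none, Kcnip3 had 1 and Kcnc1 had 3, so the genes shown do not stand for a direction. These matches describe the letters only, and no binding was measured.

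No potassium channel gene had an adjusted p under 0.05 in edgeR (quasi-likelihood test, Benjamini-Hochberg over all genes) in any of the 3 fits. The smallest adjusted p among the 75 was 1 over all 12 libraries, 0.9998 without rat 6 and 0.8976 in the fit with the sheet, where each of the 12 genes past the unadjusted threshold had this value. All genes tested likewise gave 0 calls. An unadjusted p under 0.05 in edgeR, called the mark here, is used only to order the genes, beside the share of all genes past it. In bulk tissue, fewer cells of a type and less RNA per cell cannot be told apart.

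Over all 12 libraries, 1 of the 75 genes, Kcnj16, was higher in blast-boldine rats at an unadjusted p under 0.05 (0.552% of all 12325 genes tested were higher) and 0 were lower (0.519% of all genes). Without rat 6, Kcnj16 was again the 1 higher gene (0.551% of 12529 genes), and 3 were lower, Kcnj12, Kcnt1 and Kcnk4 (0.846% of all genes). In the fit with the sheet, 2 were higher, Kcnj16 and Kcnj14 (2.67%, against 1.81% of all genes). In that fit 10 were lower (13.3%, against 3.54% of all genes), among them Kcnj11, Kcnt1, Kcnf1, Kcnj12, Kcnk3, Kcnip3, Kcnk4, Kcnc1 and Kcnj4. DESeq2 with the same terms had 2 higher and 11 lower, with all 12 genes of the edgeR fit among them, and 0 at an adjusted p under 0.05 (smallest among members 0.4381).

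The median log2 fold change of the 75 genes was -0.04 over all 12 libraries, beside 0.00 for all genes tested, with 30 above 0 and 45 below. Without rat 6 it was -0.07 (26 above, 49 below), and with the sheet as a covariate -0.06 (25 above, 50 below), beside -0.00 and -0.01 for all genes. The sign rested on single libraries in the fit of 12, since without blast-control rat 4 the median was 0.04 and without blast-boldine rat 35 it was 0.02. It was -0.01 in the fit with the sheet when rat 4 was left out too. Rat 4 had the highest value of the 11 libraries for 19 of the 75 genes (25.3%), where 11.3% of all genes had theirs there, and the 75 genes summed to 6055 CPM in rat 4 and to between 4589 and 5356 CPM in the other 10 libraries.

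**Figure D2:**
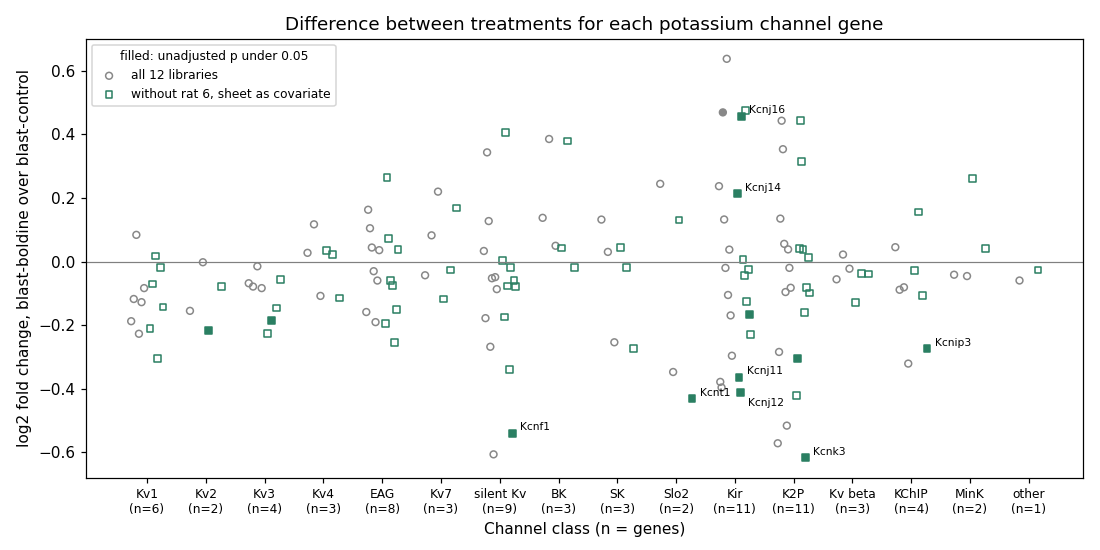
The log2 fold change of each of the 75 genes, blast-boldine over blast-control, by channel class, over all 12 libraries (circles) and without rat 6 with the sheet as covariate (squares), filled where the unadjusted p was under 0.05. The Kir class holds 1 filled circle (Kcnj16) and 5 filled squares, 2 above 0 and 3 below.

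By class, the Kir genes held 5 of the 12 genes past the mark in the fit with the sheet and the K2P genes 2, and the other classes held at most 1 each, among them Kcnc1 (Kv3), Kcnf1 (silent Kv), Kcnt1 (Slo2) and Kcnip3 (KChIP). None of the 6 Kv1, 3 Kv4, 3 Kv7, 8 EAG, 3 BK, 3 SK, 3 Kv beta and 2 MinK genes passed it, nor did Kcnrg, the 1 gene outside these classes. The class medians in this fit ran from -0.17 for Kv3 (4 genes, all below 0) to 0.15 for MinK (2 genes, both above 0). Among the larger classes they were -0.04 for Kir (11 genes), -0.08 for K2P (11), -0.08 for silent Kv (9), -0.07 for EAG (8) and -0.11 for Kv1 (6 genes, 5 below 0).

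Among the inward rectifiers, Kcnj16 encodes a subunit that does not conduct well alone and is best known from astrocytes, where it pairs with the product of Kcnj10 and takes part in buffering potassium and sensing pH. On chromosome 10 of mRatBN7.2, from 96017935 to 96019704, Kcnj16 had a lowest, median and highest value of 12.6, 15.0 and 21.2 CPM in blast-boldine rats. The blast-controls had 14.2 (rat 1), 9.87 (rat 4), 9.83 (rat 5), 10.7 (rat 7) and 12.1 CPM (rat 9), and no count in rat 6. Above every control lay 4 of the 6 blast-boldine rats, led by rat 20, and rats 32 and 35 lay among them. Means ± SD were 15.5 ± 3.18 against 11.3 ± 1.83 CPM (n = 6 and 5, rat 6 left out). Over 12 libraries the log2 fold change of Kcnj16 was 0.47 (SE 0.19, adjusted p = 1 in edgeR), and in the fit with the sheet it was 0.46 (SE 0.15, adjusted p = 0.8976), past the mark in both. The exact two-sided permutation test of the log2 CPM gave p = 0.00866 over all 12 libraries and 0.0195 without rat 6. Its unadjusted p was over 0.05 in edgeR over 12 libraries when blast-control rat 4, 5 or 7 or blast-boldine rat 12 or 20 was left out (0.0507 to 0.0794), and in DESeq2 (0.0737). With the sheet in the fit and rat 6 out, it stayed past the mark whichever further library was left out.

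Values of other cell types stood beside this difference. The 9 astrocyte markers of the marker list were all below 0 in the fit with the sheet, with a median log2 fold change of -0.07 and 0 past the mark. Their sum ranged from 4075 to 5248 CPM in blast-boldine rats and from 4319 to 5566 CPM in blast-controls without rat 6. The 6 meningeal markers had a median of 0.61 in the same fit. Higher and past the mark were 3 of them (Lum, Slc6a13 and Ptgds), beside 1.81% of all genes. The 6 summed to 175 to 532 CPM in blast-boldine rats and 151 to 362 CPM in blast-controls. None of the 6 was at 0 in these 11 libraries. The 5 ependymal markers, with 1 past the mark (Ccdc153), summed to 22.5 to 46.8 CPM and 22.2 to 43.7 CPM. The part of these cells in the values of Kcnj16 was not tested.

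Kcnj14, a Kir subunit of the strongly rectifying group, differed by less but with less spread. On chromosome 1 from 96293436 to 96297448, it had a lowest, median and highest value of 14.4, 16.1 and 17.7 CPM in blast-boldine rats. The controls had 14.2 (rat 1), 12.7 (rat 4), 15.2 (rat 5), 14.3 (rat 7) and 13.1 CPM (rat 9), with 0 counts in rat 6. All but rat 19 of the blast-boldine rats, 5 of 6, lay above every one of these. Kcnj14 had a log2 fold change of 0.24 over 12 libraries (SE 0.15) and of 0.21 in the fit with the sheet (SE 0.09, past the mark). The exact permutation p was 0.00433 over 12 libraries, where the 0 of rat 6 lowers the control mean. It was 0.00866 without rat 6 and 0.015 within sheets without rat 6. In the fit with the sheet Kcnj14 was past the mark in 9 of 11 fits that left out a further library.

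Kcnj12, Kcnj4 and Kcnj11 had lower values. Kcnj12 and Kcnj4 encode strong rectifiers that hold the resting potential, and Kcnj11 encodes the pore of the ATP-sensitive channel that ties excitability to metabolism. Kcnj12, on chromosome 10 from 45696621 to 45743441, had a lowest, median and highest value of 5.75, 8.08 and 9.46 CPM in blast-boldine rats. Its control values were 13.5 (rat 1), 9.87 (rat 4), 10.3 (rat 5), 10.5 (rat 7) and 8.59 CPM (rat 9), and rat 6 had no count. All 6 blast-boldine rats lay below the median of these controls and 4 below every one of them. Kcnj12 had a log2 fold change of -0.40 over 12 libraries (SE 0.19, not past the mark), of -0.42 without rat 6 (SE 0.16) and of -0.41 in the fit with the sheet (SE 0.14), both past it, and passed it whichever further library was left out of the last. The exact permutation p was 0.0130 without rat 6 and 0.9957 with it, where the 0 of rat 6 enters the control mean.

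Kcnj4, on chromosome 7 from 111047097 to 111074151, averaged 62.9 ± 3.58 against 70.3 ± 5.24 CPM (mean ± SD, 6 blast-boldine rats and 5 controls without rat 6). The blast-boldine values ran from 58.3 through a median of 63.1 to 67.9 CPM, and the controls had 74.6, 66.0, 77.2, 66.3 and 67.3 CPM in rats 1, 4, 5, 7 and 9, and 79.2 CPM, from 5 counts, in rat 6. Below every control lay 5 of the 6 blast-boldine rats, and rat 20 did not. On the log2 scale the difference of Kcnj4 was -0.17 over 12 libraries (SE 0.11) and -0.17 in the fit with the sheet (SE 0.07, past the mark, and so in 5 of 11 fits that left out a further library). The exact permutation p for Kcnj4 was 0.0130 over 12 libraries and 0.0217 without rat 6.

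Kcnj11, on chromosome 1 from 96591049 to 96594082, was the member with the smallest p in the fit with the sheet. Its blast-boldine values ran from 15.1 through a median of 23.0 to 33.2 CPM, against 37.1, 28.3, 21.9, 32.9 and 32.9 CPM in control rats 1, 4, 5, 7 and 9. The groups overlapped as a whole, but the overlap followed the sheets. In sheet 2 the blast-boldine rats had 15.1, 16.9 and 15.7 CPM and the controls 28.3 and 21.9 CPM, so that none overlapped. In sheet 1 the blast-boldine mean was 31.2 and the control mean 34.3 CPM, and the values overlapped. For Kcnj11 the log2 fold change was -0.38 over 12 libraries (SE 0.24) and -0.36 in the fit with the sheet (SE 0.11), past the mark there and in all 11 fits that left out a further library. With rat 6 left out, assignments kept within sheets gave an exact permutation p of 0.015, and free assignments 0.128. The test of whether the difference was the same in both sheets was past the mark too, unadjusted. Abcc8, the sulfonylurea receptor that surrounds this pore, had a log2 fold change of -0.15 (SE 0.07, past the mark) in the fit with the sheet.

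**Figure D3:**
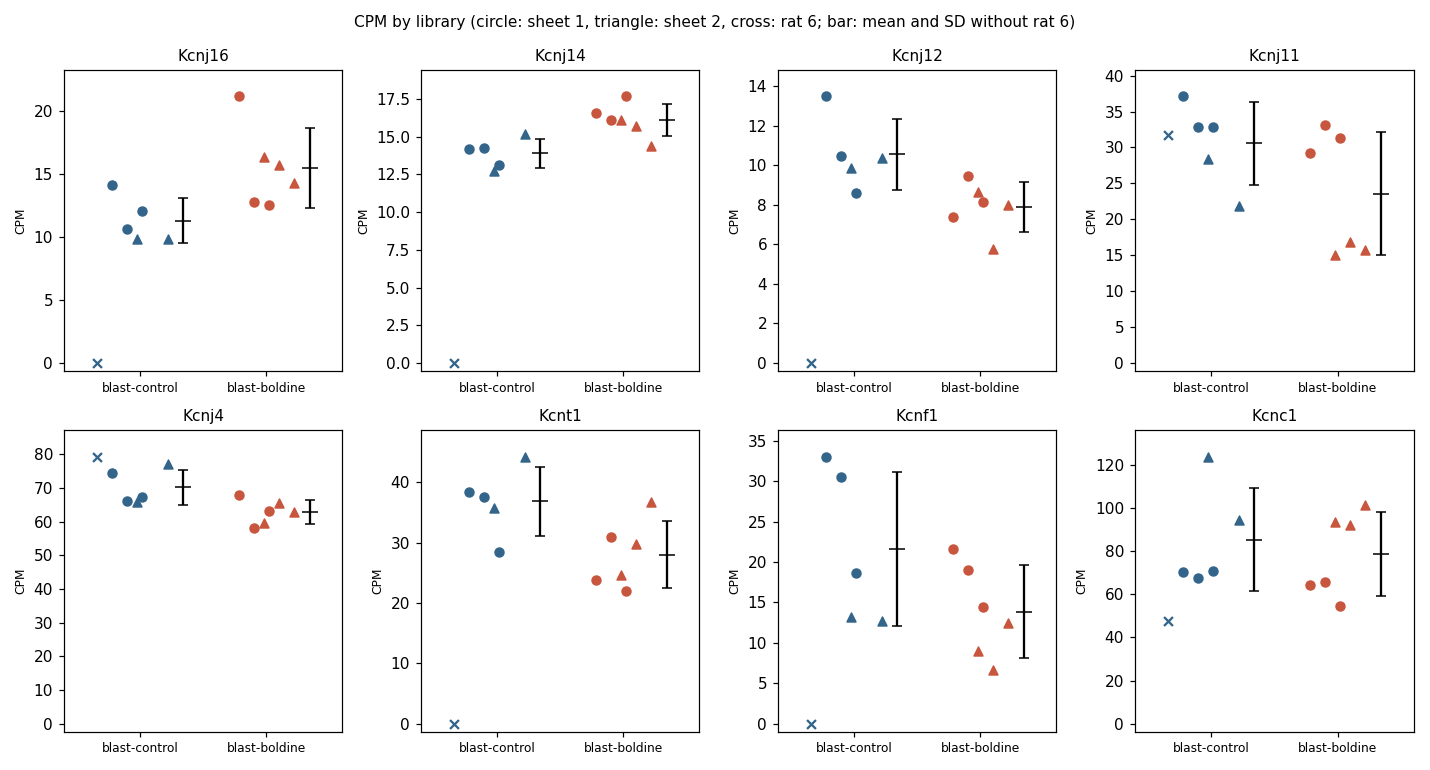
CPM of 8 genes in each library, blast-control and blast-boldine, with circles for sheet 1, triangles for sheet 2, a cross for rat 6 and a bar for the mean and SD without rat 6. For Kcnj14, 5 of 6 blast-boldine rats sit above every control other than rat 6, while for Kcnc1 the libraries separate by sheet first.

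The other Kir genes were not past the mark in the fit with the sheet. Kcnj5, a subunit of G-protein-gated channels, had a log2 fold change of -0.23 (SE 0.15) in that fit. Kcnj3 had one of -0.03 (SE 0.08) and Kcnj6 of -0.04 (SE 0.07) in the fit with the sheet. Kcnj9, which joins Kcnj3 in G-protein-gated channels, had -0.13 (SE 0.10) and Kcnj2, a strong rectifier, 0.01 (SE 0.17). Kcnj15 had the largest positive log2 fold change of the 75 over 12 libraries, 0.64 (SE 0.39, not past the mark). Its values from 0.361 to 1.31 CPM in blast-boldine rats overlapped the controls other than rat 6, at 0.262 to 0.988 CPM. Kcnj15 reached 10 counts in only 6 libraries, the fewest that the rule allows, and most of these were blast-boldine. Its place among the 75 thus rested on the group where it was higher, and its rank is a description only.

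Among the activity-driven channels, Kcnt1, the sodium-activated Slo2 channel that damps sustained firing, had the lower values. On chromosome 3 from 8698005 to 8735667, Kcnt1 had a lowest, median and highest value of 21.99, 27.2 and 36.8 CPM in blast-boldine rats, against 38.4, 35.7, 44.1, 37.6 and 28.4 CPM in control rats 1, 4, 5, 7 and 9, and 0 counts in rat 6. All 6 blast-boldine rats lay below the control median, and 3 below every control. Kcnt1 had a log2 fold change of -0.35 over 12 libraries (SE 0.22, not past the mark). It had -0.40 without rat 6 (SE 0.16) and -0.43 in the fit with the sheet (SE 0.13), both past the mark, and the last stayed so whichever further library was left out. The exact permutation p of Kcnt1 was 0.0411 without rat 6 and 0.9784 with it. Its relative Kcnt2 had a log2 fold change on the other side of 0, at 0.13 (SE 0.08, not past the mark) in the fit with the sheet, and 4 of 6 blast-boldine rats lay above every control.

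The calcium-activated channels showed no gene past the mark. Kcnma1 averaged 267.8 ± 31.7 CPM in blast-boldine rats against 253.9 ± 31.7 CPM in controls without rat 6 (mean ± SD, n = 6 and 5), and Kcnmb4 50.3 ± 11.7 against 48.7 ± 12.7 CPM. Kcnmb2, a BK subunit that inactivates the channel, was at 3.30 ± 0.545 against 2.55 ± 0.698 CPM. Its log2 fold change of 0.39 over 12 libraries (SE 0.20) was not past the mark. The exact permutation p was 0.0281 with the 0 of rat 6 in the control mean, and 0.0563 without rat 6. No blast-boldine rat lay below the control median of Kcnmb2, and 1 lay above every control. Kcnn2, the SK gene of the after-hyperpolarization, had 58.4 ± 3.11 against 58.5 ± 3.89 CPM. Kcnn3, another SK gene, lay at 11.9 ± 1.71 against 14.5 ± 2.42 CPM, with a log2 fold change of -0.28 without rat 6 (SE 0.15, not past the mark) and all 6 blast-boldine rats below the control median.

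Of the two-pore-domain genes, Kcnk4 and Kcnk3 had the lower values. Kcnk4 encodes a channel opened by stretch and lipids, and Kcnk3 one closed by acid. Kcnk4, on chromosome 1 from 204118647 to 204124976, ran from 9.02 through 10.8 to 13.4 CPM in blast-boldine rats, and the controls had 14.4, 16.1, 11.2, 13.4 and 12.7 CPM in rats 1, 4, 5, 7 and 9. The groups overlapped, with 3 blast-boldine rats below every control. Kcnk4 had a log2 fold change of -0.28 over 12 libraries (SE 0.18, not past the mark), of -0.31 without rat 6 (SE 0.14) and of -0.31 in the fit with the sheet (SE 0.13), the latter past the mark in 5 of the 11 fits that left out a further library. Kcnk3 was low, at 2.40 ± 1.22 against 3.49 ± 1.54 CPM (mean ± SD). Over 12 libraries its log2 fold change was -0.52 (SE 0.36), not past the mark. In the fit with the sheet the log2 fold change of Kcnk3, -0.62 (SE 0.22), was the lowest of the 75 and past the mark. Kcnk1 had 0.04 (SE 0.08) and Kcnk2 0.04 (SE 0.11) in that fit, with values that overlapped between treatments.

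Kcnf1 and Kcnc1, of the voltage-gated genes, were past the mark in the fit with the sheet. Kcnf1, a silent subunit, had 21.6, 19.01 and 14.5 CPM in the sheet 1 blast-boldine rats 20, 32 and 35, against 33.0, 30.5 and 18.7 CPM in control rats 1, 7 and 9. In sheet 2 it had 9.02, 6.64 and 12.5 CPM in rats 12, 17 and 19, against 13.2 and 12.7 CPM in control rats 4 and 5. Blast-boldine rats of sheet 2 lay below both controls of that sheet, while in sheet 1 rats 20 and 32 lay above control rat 9. Kcnf1 had a log2 fold change of -0.61 over 12 libraries (SE 0.35, not past the mark) and of -0.54 in the fit with the sheet (SE 0.18), past the mark there and in all 11 fits that left out a further library.

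Kcnc1, a Kv3 subunit of fast-spiking interneurons, had blast-boldine and control means of 61.5 and 69.5 CPM in sheet 1 and of 95.6 and 108.9 CPM in sheet 2. Its log2 fold change was -0.08 over 12 libraries (SE 0.21) and -0.12 without rat 6 (SE 0.21), neither past the mark. In the fit with the sheet it was -0.19 (SE 0.08), past the mark. In sheet 1 all 3 blast-boldine values of Kcnc1 lay below the 3 controls, whereas in sheet 2 rat 19 (101.4 CPM) lay above control rat 5 (94.2 CPM) and below control rat 4 (123.5 CPM). Kcnc1 was past the mark in 5 of the 11 fits that left out a further library.

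The other Kv genes chosen for their role in hippocampal excitability had values closer between treatments. With the sheet as a covariate, the log2 fold change was -0.02 (SE 0.06) for Kcna1, -0.07 (SE 0.06) for Kcna2, 0.02 (SE 0.06) for Kcnd2 and -0.03 (SE 0.07) for Kcnq3. Kcnq5, another Kv7 gene of the M-current, averaged 152.5 ± 25.7 against 131.3 ± 11.4 CPM (mean ± SD), with a log2 fold change of 0.22 over 12 libraries (SE 0.13, not past the mark). The blast-boldine rats of sheet 2 had 183.3, 172.4 and 168.9 CPM of Kcnq5, above every other library, and those of sheet 1 lay among the controls. In the fit with the sheet the difference was -0.15 (SE 0.09) for Kcnc4, -0.15 (SE 0.11) for Kcnh3 and -0.08 (SE 0.18) for Kcng1, and 0.41 (SE 0.21) for Kcns1, a silent subunit, none of them past the mark.

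Of the auxiliary subunits, Kcnip3, a KChIP that also acts as a calcium-dependent repressor of transcription, had the lower values. Kcnip3 averaged 31.3 ± 6.50 against 38.7 ± 7.43 CPM (mean ± SD), with 4 of 6 blast-boldine rats below every control. The log2 difference of Kcnip3 was -0.32 over 12 libraries (SE 0.17, not past the mark) and -0.27 in the fit with the sheet (SE 0.11), past the mark in 8 of the 11 fits that left out a further library. Kcnab2, at -0.04 (SE 0.09), and Kcnip2, at -0.03 (SE 0.10), had log2 fold changes smaller than their SE in that fit.

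Kcne2, a single-pass subunit found at the apical side of the choroid plexus, fell into separate levels. It had 18.7, 12.3 and 22.8 CPM in blast-boldine rats 12, 17 and 32 and 22.7 and 22.5 CPM in control rats 1 and 7, and between 1.68 and 2.23 CPM in the 6 other libraries apart from rat 6, which had no count. Ttr, a gene of the choroid plexus, had 494.2 to 893.3 CPM in the same 5 libraries and 4.39 to 38.9 CPM in the others. Both treatments and both sheets were among the 5. Over 12 libraries Kcne2 had a log2 fold change of -0.04 (SE 0.85). The part of choroid plexus in the tissue taken was not tested.

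**Figure D4:**
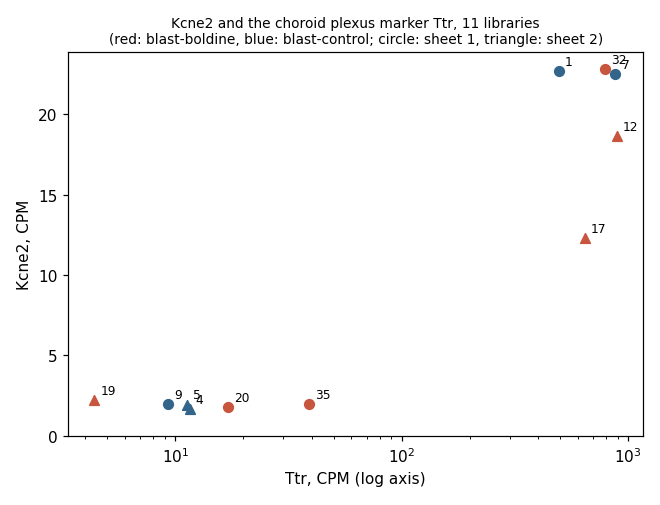
Kcne2 (CPM) against Ttr (CPM, log axis) in 11 libraries, labelled by rat number, blast-boldine in red and blast-control in blue, with circles for sheet 1 and triangles for sheet 2. The 5 libraries with 12.3 CPM or more of Kcne2 are those with 494.2 CPM or more of Ttr.

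The levels of many of these genes differed between the sheets. The sheet was chosen from the same libraries for its share of the first principal component, so a large difference between sheets follows from that choice, and the values are given as a description. Without rat 6, 45 of the 75 differed between sheets by edgeR's test (adjusted p under 0.05), beside 68.2% of all genes tested, with 25 higher and 20 lower in sheet 2. For 32 genes the CPM of the 6 libraries of sheet 1 and the 5 of sheet 2 did not overlap, beside 48.6% of all genes. Kcnj6 had 264.7 to 325.9 CPM in sheet 1 and 547.9 to 653.8 CPM in sheet 2. In the other direction, Kcnv1, a silent subunit, had 42.5 to 53.1 CPM in sheet 1 and 12.5 to 25.8 CPM in sheet 2, and Kcnc2, a Kv3 gene of interneurons, 101.7 to 135.2 and 50.4 to 68.1 CPM. The log2 difference of sheet 2 over sheet 1 was 1.13 for Kcnj6, 0.65 for Kcnc1, -1.03 for Kcnc2, -1.49 for Kcnv1 and -1.91 for Kcnk6. Within 1 class, Kv3, the genes thus lay on both sides.

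**Figure D5:**
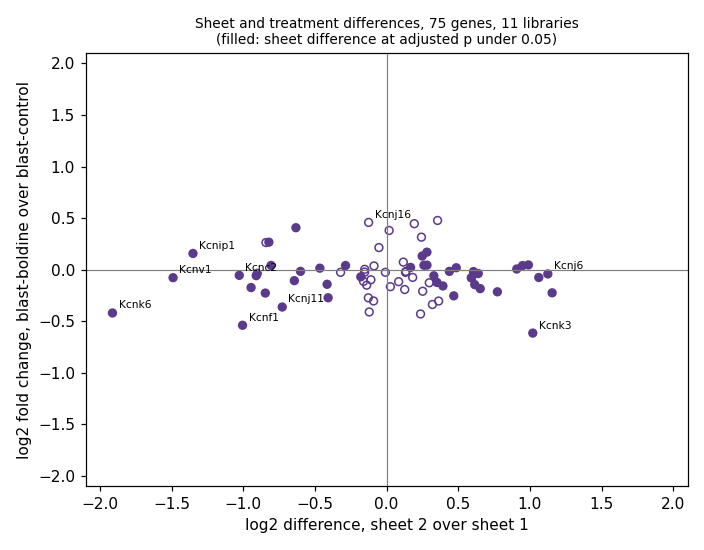
For each of the 75 genes, the log2 difference of sheet 2 over sheet 1 (horizontal) and the log2 fold change of blast-boldine over blast-control (vertical), from 1 fit of 11 libraries, filled where the sheet difference had an adjusted p under 0.05. Kcnk6 lies at -1.91 and Kcnj6 at 1.13 along the sheet axis, and the points spread from -0.62 to 0.48 along the treatment axis.

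Treatment differences within each sheet, with 3 blast-boldine rats in each and 3 and 2 controls, were compared by sign. They had the same sign in both sheets for 41 genes, higher in 15 and lower in 26, and opposite signs in 34. The same counts over all genes were not made. The test of a difference between sheets gave 6 genes with an unadjusted p under 0.05 (Kcnip1, Kcnj11, Kcnq5, Kcna3, Kcna6 and Kcnip4), beside 5.64% of all genes, and 0 at an adjusted p (smallest 0.8809 in edgeR). Kcnip1, a KChIP of interneurons, had the smallest. Its means in blast-boldine and control rats were 27.0 and 31.8 CPM in sheet 1 and 14.0 and 8.06 CPM in sheet 2.

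The groups did not overlap without rat 6 for any of the 75 genes in either direction, where 0.0798% of all genes lay wholly higher in blast-boldine rats and 0.0718% wholly lower. Exact permutation p under 0.05 was reached by 4 genes over 12 libraries (Kcnj14, Kcnj16, Kcnj4 and Kcnmb2), 5.33% of the 75 beside 2.28% of all genes, where the smallest p that the design allows is 0.00216. Of these 4, Kcnj14, Kcnj16 and Kcnmb2 had 0 counts in rat 6. Their differences in mean log2 CPM were 1.36, 1.53 and 1.12 over 12 libraries and 0.21, 0.44 and 0.38 without rat 6. Without rat 6 an exact p under 0.05 was reached by 6 genes, Kcnj14, Kcnj12, Kcnj16, Kcnj4, Kcnt1 and Kcnk4, beside 2.06% of all genes. Within sheets it was reached by 9 over 12 libraries (5.18% of all genes) and by 10 without rat 6 (6.03% of all genes). These p are not adjusted.

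Genes of proteins that bind, anchor or regulate the channels were taken as a separate list of 38, of which 35 were in the table and 33 were tested. Over 12 libraries and without rat 6, none of the 33 was past the mark in either direction. With the sheet 1 was lower, Abcc8, beside 3.54% of all genes. Their median log2 fold change with the sheet was -0.01, like that of all genes tested. Dpp6, a partner of Kv4 channels, had 0.01 (SE 0.07), Lgi1, a secreted protein that acts on Kv1 channels, 0.15 (SE 0.09), and Cntnap1, which places Kv1 channels beside the node, -0.20 (SE 0.10, not past the mark).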

How the data were processed

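RNA was extracted from hippocampus with TRIzol, depleted of ribosomal RNA and made into stranded libraries, 1 per rat. HTStream was used by the authors for trimming and for discarding PCR duplicates, STAR 2.7.11b for alignment to mRatBN7.2, allowing several alignments per read, and featureCounts of Subread 2.0.1 for counting on RefSeq exons by gene name and strand. The deposited values are raw counts, without normalization, and 1804 of 17494 genes had none. Groups came from the labels, and strain, dose and times from the study's methods.

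Whole-table fits used edgeR 4.0.16 in R 4.3.3 (quasi-likelihood test, TMM, filterByExpr, treatment only, two-sided, Benjamini-Hochberg at 0.05). Main fits held 12 libraries (12325 genes). Log2 CPM used a prior count of 2, and single genes were compared by exact permutation of group means. Alternatives were leaving out each library, the sheet as covariate, DESeq2 1.42.0, limma-voom (limma 3.58.1), other size factors, other filters and another prior count. Fits that combined the sheet, the omission of rat 6 and a further library or DESeq2, and permutation within sheets without rat 6, were added after the data were seen. Summaries used Python 3.11.15. Scripts were tested on simulated data.

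Genes named are the highest per class by CPM per kilobase, the 4 higher and 4 lower with the smallest p in the fit of 12 libraries and in that with the sheet, and 12 known for hippocampal excitability. Kcnk3, Kcnk4, Kcnn3, Kcnc2, Kcnv1, Kcnk6, Kcnip1, Kcnj2, Kcnj9, Kcnk5 and Kcnk16 and the partner and marker genes were chosen after their values were seen. A few genes that these rules name are not reported here. Members and lists were chosen with earlier results of these data known. Only Kcnh3 shares exon bases with another listed gene (Mcrs1, opposite strand, 2 bases).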

Additional observations from a re-analysis of the deposited data

Results flagged for a closer look

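Among the named genes, 66 groups of 6 rats were checked for a library far from the others, and 12 stood apart, where chance gives about 1 in 20 groups. Of these, 11 were blast-control rat 6, the library of 74008 counts. There, Kcna1 (285.1 CPM, 18 counts) and Kcna2 (126.7 CPM, 8 counts) were high. Kcnq3 (110.9 CPM, 7 counts), Kcnn2 (31.7 CPM, 2 counts) and Kcnj3 (15.8 CPM, 1 count) were low, and Kcnj12, Kcnj14, Kcnj16, Kcnk2, Kcnt1 and Kcnt2 were at 0. Of these 6, Kcnj12, Kcnj14, Kcnj16, Kcnk2 and Kcnt1 had values in the other libraries below the 47.5 CPM that 3 counts are worth in rat 6. Kcnt2 had 68.0 CPM or more in every other library. Kcnj3 also stood apart in blast-boldine rat 17, at 77.4 CPM (780 counts), below the other 5 blast-boldine rats.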

How the results depend on the processing

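No setting gave a potassium channel gene at an adjusted p under 0.05. The count of higher genes at an unadjusted p under 0.05, 1 in edgeR over 12 libraries, was 2 with the sheet and without rat 6 and 0 in DESeq2, and ranged from 0 to 2 when single libraries were left out. It was 0 without blast-control rat 5 or 7 or blast-boldine rat 12. The count of lower genes, 0, was 7 with the sheet, 10 with the sheet and without rat 6 and 1 in limma-voom, and ranged from 0 to 3, the latter without rat 6. In the fit with the sheet and without rat 6, leaving out a further library gave 2 to 4 higher genes, with 4 without blast-control rat 9, and 7 to 12 lower genes, while the share of all genes past the same threshold ranged from 1.36% to 2.79% higher and from 2.35% to 5.42% lower (the latter without blast-control rat 5, which gave the 12), and all of the 10 lower genes kept their sign. The median log2 fold change, -0.043, ranged from -0.069 to 0.042 when single libraries were left out. Exact permutation p under 0.05 was reached by 4 genes, by 9 within sheets and by 10 within sheets without rat 6. The causes of these differences were not tested. For the 33 named genes, 628 of 657 values kept their side of 0.05 and their direction, 23 came under 0.05, 6 went over it (all of Kcnj16) and 0 reversed. Size factors and filters on low counts moved no count of genes. No paired analysis was possible because the groups share no rat numbers. With 74008 counts, rat 6 says little of genes below 47.5 CPM.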

Other observations

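Marker lists give the setting of these values in the fit with the sheet and without rat 6. In that fit 3.54% of all genes tested were lower and 1.81% higher at an unadjusted p under 0.05 (edgeR). Of 7 excitatory neuron markers 2 were lower at this threshold, and 1 of 10 CA pyramidal, 1 of 8 microglial and 1 of 7 thalamic markers. None of the 11 GABAergic, 6 dentate granule, 9 astrocyte, 10 oligodendrocyte, 8 endothelial and pericyte, 8 choroid plexus, 8 cortical and 6 striatal markers passed it in either direction. All 8 microglial markers had log2 fold changes below 0, with a median of -0.14, and all 8 choroid plexus markers above 0, with a median of 0.67. The sum of the latter ran from 10.2 to 1351 CPM in blast-boldine rats and from 14.9 to 1331 CPM in blast-controls without rat 6. The part of any of these in the values of the potassium channel genes was not tested.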
